A study of Saccharomyces cerevisiae with 2 samples.

Results

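Aspartate and glutamate are the acidic amino acids, and the standard genetic code gives each of them a pair of codons that start with GA: GAC and GAT for aspartate, GAG and GAA for glutamate. In budding yeast a single tRNA species, whose anticodon starts with G, reads both aspartate codons. GAA is read by a glutamate tRNA whose wobble uridine carries the modification made by Elongator, Trm9 and the Urm1 thiolation system, and GAG also has a tRNA of its own with C at that position. GAA is the glutamate codon that strongly expressed yeast genes favour. In ribosome profiling, the footprints that ribosomes protect from nuclease are counted codon by codon, and a codon on which ribosomes spend more time collects more of them.

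The set described here holds every pair of a gene and one of these 4 codons in which the codon occurs at least 1 time and the gene has at least 100 footprints. It comprises 11360 of the 257597 pairs of gene and codon in the deposited table, and 17866 pairs of these codons exist before the footprint minimum is applied. The pairs lie in 2926 genes, contain 169244 codon occurrences and hold 381666 footprints. These codons thus made up 12.7% of all codon occurrences and received 10.4% of the footprints in the 2939 genes that met the minimum. All data come from Saccharomyces cerevisiae strain yJC2229, for which the labels give no genotype, grown at 24 °C in YPD of pH 6.5 with 2% glucose to mid-log phase without pretreatment. There was 1 ribosome footprint library and 1 total RNA library, cycloheximide was present during lysis and footprints came from the 80S fraction of a sucrose gradient. With 1 library of each kind there are no replicates, no test was made and no p-value is given.

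Each pair was given a value: footprints per occurrence of the codon in that gene over the gene's own average for all its codons, so that 1 is the level of the gene's average codon. The value of a codon is the mean over all its occurrences. Each codon value is printed with a counting interval and a standard error. The 95% counting interval treats footprints as independent counts and covers counting error only, and amplified reads are not independent molecules. The standard error over genes (SE) is the error of a mean or ratio, worked out from the differences between genes of this library. It is much smaller than the spread of single genes and says nothing about other cultures. The deposited table held 3756929 footprints in 4579 genes, and a gene used here had between 100 and 79140 of them with a median of 290.

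Of the 2939 genes that met the footprint minimum, 13 have no acidic codon at all, and those named here are small. They include the basic large subunit ribosomal proteins RPL39 (52 codons including the stop, 12686 footprints), RPL37A (90 codons, 11824 footprints), RPL37B (90 codons, 5872 footprints) and the 26-codon frames RPL41A and RPL41B. The proton pump associated proteolipids PMP1 and PMP2, the cytochrome c oxidase subunit COX7 and the stress gene DDR2 are also among them. Strongly translated genes that do encode glutamate rarely use GAG. Among the 100 genes with the most footprints, 76 have no GAG codon, against 217 of all 2939 genes. These counts do not leave out genes without a glutamate codon and are not matched for length. In those 100 genes GAA took 96.4% of the glutamate codons and GAC 59.9% of the aspartate codons.

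The 4 codons together had a value of 0.880 (95% counting interval 0.872 to 0.888, SE 0.00732), against 1.01 for the other 57 sense codons (1.01 to 1.01, SE 0.00116). Division by the gene mean fixes the mean over all codons at 1. The 1.01 thus follows from the 0.880 and the stop codons and is no separate comparison. Acidic codons held fewer footprints than the average codon of their own genes, and the distance to 1 is larger than either error. Among the 20 amino acids, aspartate ranked 10 from the top at 0.916 (SE 0.0108) and glutamate 15 at 0.848 (SE 0.00988). Both stood above the amides that differ from them only in the side chain group, asparagine at 0.694 (SE 0.0106) and glutamine at 0.708 (SE 0.0108).

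The aspartate codons differed little from each other. GAC, the codon that pairs by Watson-Crick rules with the aspartate tRNA, had a value of 0.966 (0.947 to 0.987, SE 0.0187) and ranked 38 of the 61 sense codons. GAT had 0.887 (0.873 to 0.903, SE 0.0137) and ranked 41. The footprints behind these values were 100611 on 28424 occurrences of GAC and 80620 on 50925 occurrences of GAT, which is 3.54 and 1.58 footprints per occurrence before division by gene means. The raw levels differ more than the values.

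The glutamate codons lay further apart. GAG had a value of 0.980 (0.957 to 1.00, SE 0.0200) and ranked 34, and its interval reaches 1. GAA had 0.796 (0.784 to 0.809, SE 0.0114) and ranked 45, the lowest of the 4. GAG held 30608 footprints on 25481 occurrences and GAA 169827 on 64414 occurrences, or 1.20 and 2.64 footprints per occurrence. In raw footprints per occurrence GAA stood above GAG, and relative to the genes that carry each codon GAA stood below it.

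**Figure D1:**
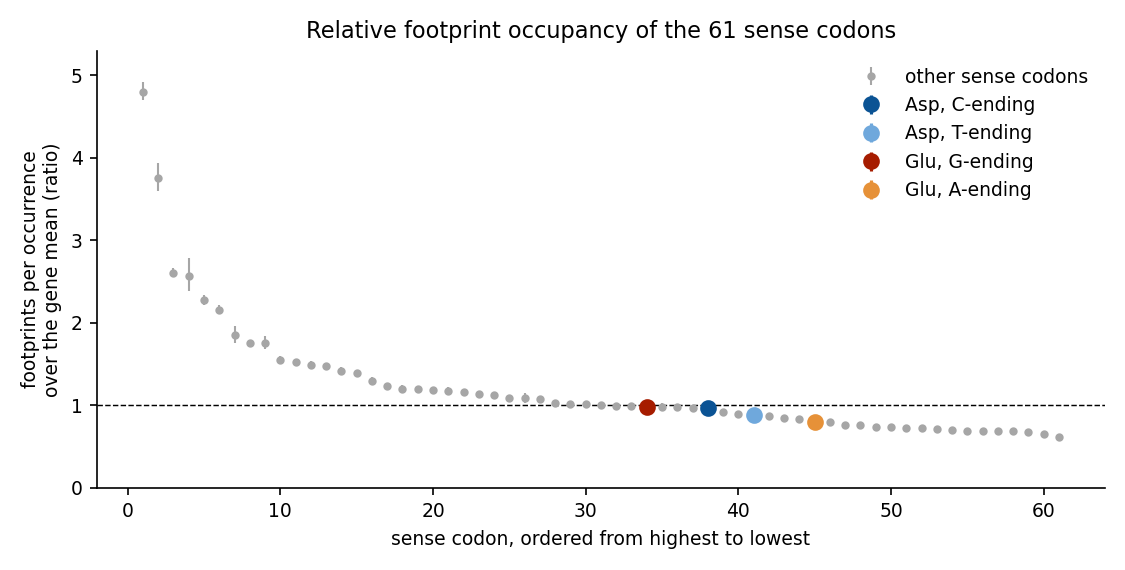
Value of each of the 61 sense codons (footprints per occurrence over the gene mean, ratio, y axis), ordered from highest to lowest (x axis). Bars are 95% counting intervals and the dashed line marks the gene mean. The large points are GAC (0.966), GAT (0.887), GAG (0.980) and GAA (0.796), which sit in the flat middle and lower part of the order, far from the highest codon at 4.80.

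The levels of the 4 codons moved with the weight given to strongly covered genes. In genes with at least 1000 footprints GAC had 1.07, GAT 0.930, GAG 1.13 and GAA 0.865, so GAC and GAG lay above the gene mean there. When footprints were simply summed and divided by the sum expected from gene means, GAC had 1.04, GAT 0.905, GAG 1.06 and GAA 0.853. With footprints pooled over genes and no division by the gene mean, GAC had 1.29, GAT 0.577, GAG 0.438 and GAA 0.961. GAC and GAG thus changed side of 1 between settings, while GAT and GAA were below 1 under each setting tried.

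On either side of the footprint minimum the counting intervals overlapped. The 151 genes just inside it, with 100 to 109 footprints, gave 0.891 (0.841 to 0.945) for the 4 codons together, and the 171 genes just outside it, with 90 to 99 footprints, gave 0.832 (0.785 to 0.883).

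Individual genes spread widely around these values. Of the 11360 pairs, 5026 had at least 10 expected footprints, meaning occurrences multiplied by the gene mean, and the following shares refer to them. The median for GAC was 0.924 over 1010 genes, with the 25th and 75th percentiles of genes at 0.593 and 1.32. For GAT it was 0.845 over 1503 genes, with percentiles of 0.567 and 1.13. For GAG it was 0.897 over 800 genes, with percentiles of 0.593 and 1.30. For GAA it was 0.787 over 1713 genes, with percentiles of 0.538 and 1.01, the narrowest band of the 4. The squared deviation of a pair from its codon value averaged 37.1 times what counting alone gives for GAC, 13.3 for GAT, 35.5 for GAG and 14.8 for GAA, so genes differ by much more than the counting intervals cover. For GAG it was 13.7 without the 97 genes that have a near twin, described further on with TEF1 and TEF2.

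High outlying pairs were rarer among acidic codons than among sense codons in general. A value of 2 or more was reached by 190 of the 5026 pairs (3.78%), against 7.22% of pairs of all sense codons with the same minimum. By codon the share was 6.04% for GAC, 3.33% for GAT, 6.75% for GAG and 1.46% for GAA. A value of 0.5 or less was found in 987 pairs (19.6%), against 23.5% over all sense codons, and the 4 codons were alike in it at 17.0% for GAC, 20.5% for GAT, 18.1% for GAG and 21.1% for GAA. No footprint at all was seen in 12.0% of the 11360 pairs, against 24.4% for all sense codons. Acidic codons are common, with 14.9 occurrences a pair against 7.93 for the other sense codons, and the part of this in the shares of high, low and empty pairs was not tested.

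**Figure D2:**
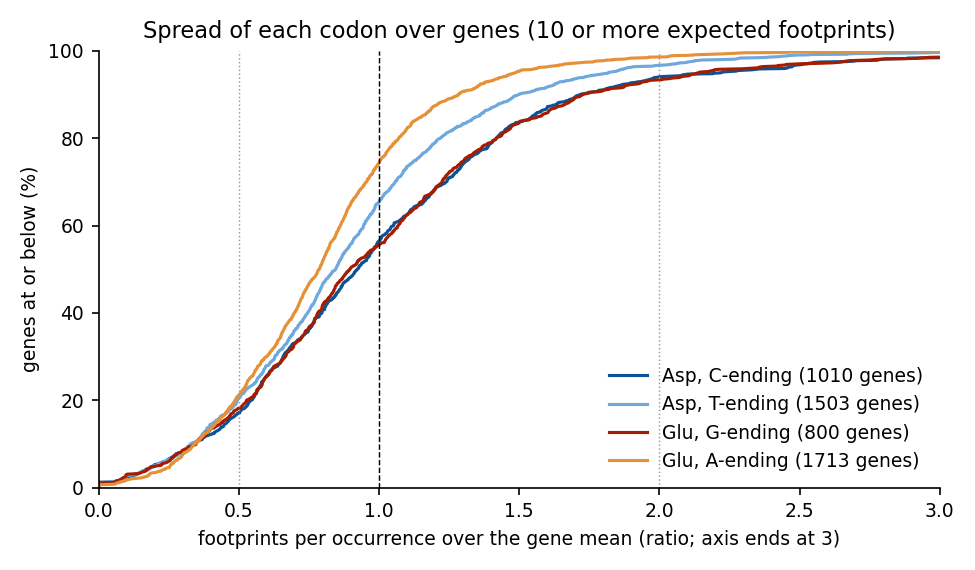
Cumulative share of genes (y axis, %) at or below a given value (x axis, ratio to the gene mean) for each acidic codon, in genes with 10 or more expected footprints on it. The GAA curve rises first, with a median of 0.787, and the GAC and GAG curves lie together to its right with medians of 0.924 and 0.897. Dotted lines mark 0.5 and 2.

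The values of the 4 codons did not move together from gene to gene. Over the 622 genes with 10 or more expected footprints on all 4, Spearman's rho between pairs of codons ran from -0.10 for GAT and GAC to 0.042 for GAT and GAA, as a description over genes of 1 library that share a denominator.

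Within synonymous pairs the comparison asks whether the codon form goes with more footprints when the amino acid is held fixed. GAC over GAT was 1.09 (95% range over genes 1.04 to 1.14), and GAC was the higher codon in 507 of 930 genes with enough footprints on both (54.5%). In the other amino acids whose C-ending and T-ending codons share such a tRNA, the C-ending codon was higher in 58.5% of comparisons, so the aspartate share lies a little below that background. GAC was at least 2 times GAT in 196 genes, and GAT at least 2 times GAC in 158.

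The aspartate ratio was among the smaller of the 8 such pairs. Asparagine at 1.00 (0.940 to 1.07) and phenylalanine at 0.996 (0.934 to 1.06) were lower, serine AGC over AGT at 1.13 (1.04 to 1.23) overlapped it, and histidine, tyrosine, cysteine and glycine reached 1.40 to 1.52. Aspartate and asparagine codons share their last bases and the kind of pairing, and their ratios have ranges that overlap.

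GAG over GAA was 1.23 (1.17 to 1.29), and GAG was the higher codon in 463 of 767 genes (60.4%), against 55.4% over the other G over A pairs. Of those 2689 comparisons 1264 are of lysine, where the share was 41.7%. The share was 63.5% for glutamine, 70.1% for leucine and 60.0% for arginine, so glutamate stood clearly above lysine only. GAG was at least 2 times GAA in 161 genes, and GAA at least 2 times GAG in 125. Glutamine, whose A-ending codon is also read with a modified wobble uridine, had a larger ratio of CAG over CAA at 1.49 (1.39 to 1.60). Lysine, the remaining amino acid read by this modified class of tRNA, went the other way, with AAG over AAA at 0.822 (0.788 to 0.857). Leucine TTG over TTA at 1.36 and arginine AGG over AGA at 1.55 completed the comparison.

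**Figure D3:**
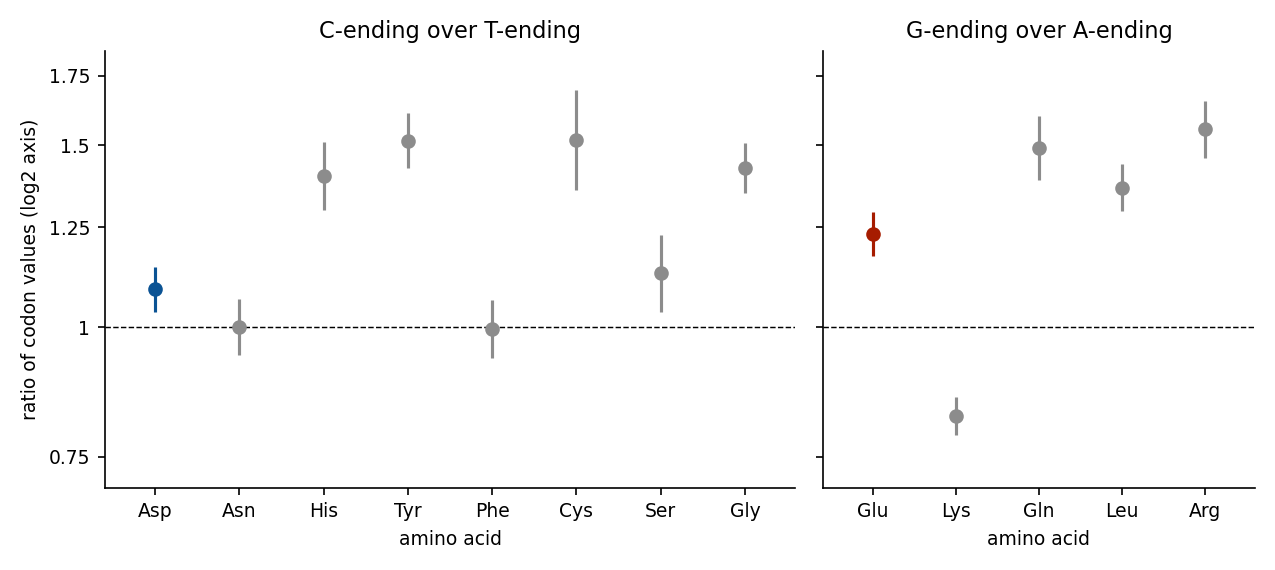
Ratio of the codon value of the C-ending over the T-ending codon (left) and of the G-ending over the A-ending codon (right), on a log2 axis, for each amino acid compared. Bars are 95% ranges from the spread over genes and the dashed line marks equality. Aspartate stands at 1.09 and glutamate at 1.23, each inside the range of the other amino acids drawn in grey.

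The ratios were also taken within classes of genes by abundance. The genes were divided into 4 classes of 734 or 735 genes by the authors' FPKM column, whose values behave as CPM, scaled to a library total and not divided by length, and whose library is not named. On the log2 scale GAC over GAT was 0.12, 0.13, 0.056 and 0.18 in classes 1 to 4, from low to high abundance, with an SE over genes of 0.066 to 0.081. GAG over GAA was 0.24, 0.32, 0.32 and 0.33, with an SE of 0.066 to 0.081. The glutamate ratio lay more than 2 SE above 0 in each of the 4 classes and the aspartate ratio in class 4, and whether the classes differ was not tested.

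Values were next compared by gene length. The 4 codons together had 0.881 (SE 0.0382) in the 121 genes of up to 100 codons, 0.874 (SE 0.0165) from 101 to 200, 0.865 (SE 0.0143) from 201 to 300, 0.897 (SE 0.0106) from 301 to 500, 0.870 (SE 0.0110) from 501 to 1000 and 0.887 (SE 0.0253) in the 182 genes above 1000 codons. As means over occurrences, these values follow no order of length. The log2 ratio of the 990 genes over 500 codons to the 594 genes of up to 200 codons was 0.0017 (SE 0.031). It was 0.12 as a median over pairs, 0.078 as a ratio of sums and 0.38 with footprints pooled and no gene mean. Of all 61 sense codons, 49.2% were higher in the long genes. Within the 4 abundance classes, from low to high, the ratio of means was -0.028, -0.041, -0.068 and -0.071, each below the 0.0017 over all classes. For the stop codons the same log2 ratio of long over short genes was 1.10 (SE 0.12).

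The shortest genes had a different order of codons. In genes of up to 100 codons GAC had 1.10 (SE 0.122), GAT 0.798 (SE 0.0589), GAG 0.770 (SE 0.0637) and GAA 0.902 (SE 0.0719). GAG was thus lower than GAA in this class, by less than 2 of their combined errors, whereas it was higher in all 5 longer classes. In genes above 1000 codons GAG had 1.01 (SE 0.0685) and GAA 0.825 (SE 0.0390).

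As means over occurrences, values were higher in the more abundant classes. The 4 codons together had 0.840 (SE 0.0163), 0.850 (SE 0.0141), 0.886 (SE 0.0150) and 0.913 (SE 0.0127) in abundance classes 1 to 4. Class 4 over class 1 was 0.12 on the log2 scale (SE 0.035). Every one of the 4 codons was higher in class 4. GAC had 1.03 in class 4 and 0.906 in class 1, and GAT had 0.912 in class 4 and 0.835 in class 1. GAG had 1.04 in class 4 and 0.914 in class 1, and GAA had 0.826 in class 4 and 0.776 in class 1. On the log2 scale these differences were 0.19 (SE 0.080) for GAC, 0.13 (SE 0.064) for GAT, 0.19 (SE 0.088) for GAG and 0.090 (SE 0.058) for GAA.

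Most other codons showed the same direction. Of the 61 sense codons, 51 (83.6%) were higher in class 4 than in class 1, with a median of 0.13, and the acidic codons ranked 19, 20, 31 and 38 among them. Averaged over their occurrences, the other 57 sense codons had nearly the same value at both ends, 1.00 in class 4 and 1.01 in class 1. Division by the gene mean holds this average near 1 in any class of genes. Class 4 also had 3.78 footprints per codon at the median against 0.685 in class 1. With the 4 classes redrawn among genes with at least 1000 footprints, the log2 ratio of the top over the bottom class was 0.043. In the original classes it was 0.036 once the highest counts of each gene were limited to its 90th percentile over sense codons. It was 0.32 as a median over pairs, and -0.021, the other direction, with footprints pooled and no gene mean. Within length classes the means over occurrences gave 0.26, 0.16, 0.20, 0.13 and 0.14 from the shortest class to that of 501 to 1000 codons, and no gene above 1000 codons fell in class 1.

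**Figure D4:**
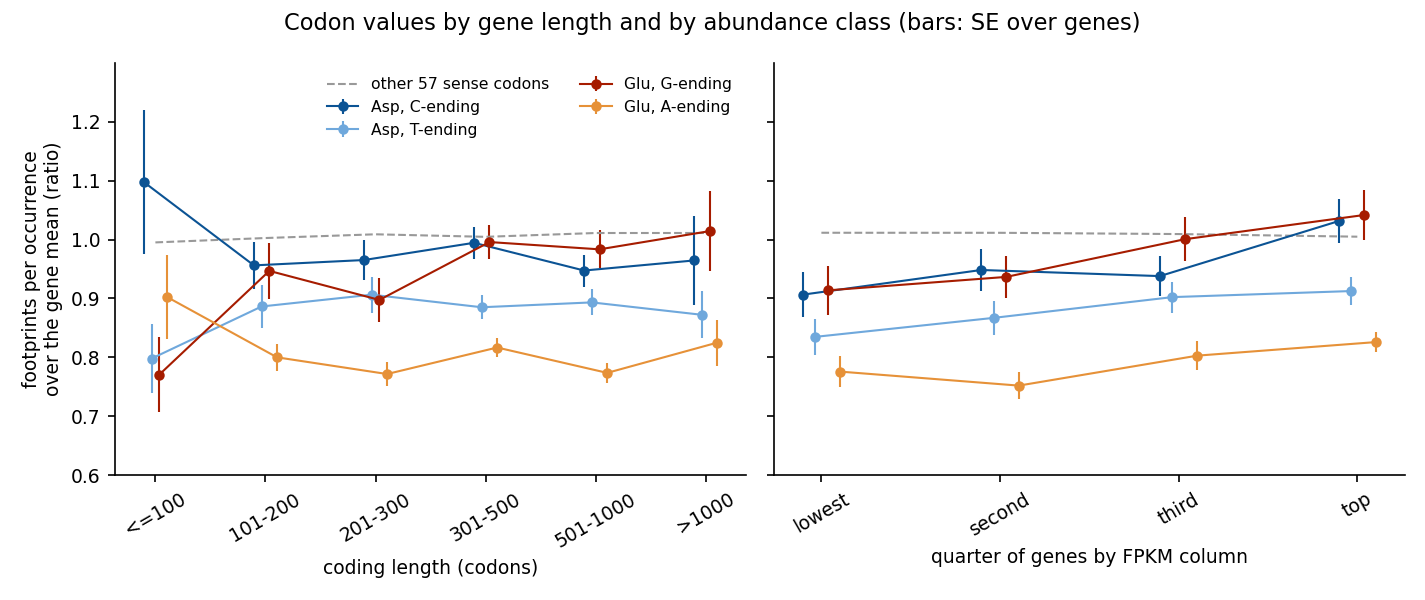
Value of each acidic codon (ratio to the gene mean, y axis) by coding length (left) and by abundance class from the lowest to the top (right). Bars are standard errors over genes and the dashed grey line is the mean of the other 57 sense codons, which division by the gene mean holds near 1. GAG lies below GAA in the shortest class of genes only, and the 4 codons together have 0.913 in the top abundance class and 0.840 in the lowest.

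As means over occurrences, genes rich in acidic residues had lower values on them. Genes were divided into 4 classes of 734 or 735 by the share of their codons that encode aspartate or glutamate, and the 4 codons together had 0.932 (SE 0.0175) in the poorest class, then 0.898, 0.889 and 0.840 (SE 0.0117) in the class from 14.6% to 39.2%. The richest class over the poorest was -0.15 on the log2 scale (SE 0.034). The difference was -0.25 (SE 0.089) for GAG, -0.16 (SE 0.057) for GAA, -0.11 (SE 0.068) for GAT and -0.071 (SE 0.077) for GAC. The same comparison with each amino acid's own share gave a lower value in the richest genes for 14 of 20 amino acids (70.0%), and glutamate was the second lowest of them at -0.19 (SE 0.049) after phenylalanine at -0.20. The median over pairs gave a log2 ratio of 0.023 and pooling without the gene mean gave 0.16, both in the other direction. With at least 30 footprints a gene, and the 4 classes redrawn among those genes, the log2 ratio was -0.073.

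The 5 richest genes were singled out after their values were seen. QCR6, the acidic hinge subunit of respiratory complex III, is 39.2% aspartate and glutamate and held 39 footprints where 108 were expected, a value of 0.362 (0.257 to 0.495). ASF1, a histone chaperone with an acidic tail, had 22 footprints on 93 acidic codons and a value of 0.552 (0.346 to 0.836). CHZ1, which carries the histone variant H2A.Z, had 0.731 (0.599 to 0.883). FPR3, a nucleolar proline isomerase, had 0.794 (0.711 to 0.884). TPM1, the major tropomyosin, had 0.963 (0.885 to 1.05) and was the only one of the 5 whose interval reached 1. All 5 values lie below 1, as did those of 67.7% of the 2854 genes with 10 or more expected acidic footprints.

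The most heavily translated genes show the values at high depth. FBA1, the glycolytic aldolase, had 1576 footprints on 12 GAC, 1205 on 6 GAT and 6670 on 31 GAA, or values of 0.597, 0.914 and 0.979. CDC19, pyruvate kinase, had 1.60 on GAC, 0.978 on GAT and 1.01 on GAA. PDC1, pyruvate decarboxylase, had 1.30 on GAC, 1.24 on GAT and 0.717 on GAA. None of the 8 genes with the most footprints contains GAG, and their GAC values did not settle on one side of the gene mean.

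The other 5 of these genes varied in the same way. ENO2, an enolase with a near twin in ENO1, had 0.879 on GAC, 1.17 on GAT and 0.815 on GAA. ADH1, the fermentative alcohol dehydrogenase, had 0.587 on GAC, 1.20 on GAT and 1.17 on GAA. AHP1, a peroxiredoxin, had 1.29 on GAC, 0.492 on GAT and 0.676 on GAA. CCW12, a cell wall mannoprotein, had 0.790 on GAC, 0.383 on its single GAT and 0.703 on GAA. TDH3, glyceraldehyde-3-phosphate dehydrogenase, was below 1 on all 3 codons at 0.743, 0.464 and 0.581, but its codon make-up is nearly that of TDH2, so its reads may be shared. Counts in these genes run from 205 to 6670 footprints a pair, so the differences between them are far larger than counting error.

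The extreme pairs were taken from those with at least 3 occurrences and 30 expected footprints. Many of the lowest belong to twin genes whose sequences are nearly identical, where reads cannot be assigned with certainty. The elongation factor genes TEF1 (chromosome XVI, 700594 to 701970, sacCer3) and TEF2 (chromosome II, 477671 to 479047) each had 0 footprints on 16 GAC codons and on 30 GAA codons, where TEF2 was expected to have 194 and 365. Both had footprints on their single GAG codon, 327 in TEF1 and 261 in TEF2, which are 32.2 and 21.5 times their gene means and the 2 highest of all single-occurrence pairs with a gene mean of 10 or more. EFT2, elongation factor 2, had 0 footprints on 54 GAA codons, and RPL1A and RPL1B had 0 on 5 GAT codons each. A count of 0 allows a value of up to 0.00823 for GAA in TEF2 and 0.0748 for GAA in EFT2.

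Such zeros were more frequent among genes with a near twin, although most lay elsewhere. In the 97 genes whose codon make-up lies within 0.1 of another gene (summed difference in codon numbers over summed length), 18 of the 236 acidic pairs with 10 or more expected footprints were empty (7.63%). In the other 2842 genes 33 of 4790 such pairs were empty (0.689%). The measure compares codon numbers and not sequences, so the 97 also hold some long genes of unlike function, such as URA2 beside ACC1. Leaving out the 97 genes changed the 4 codon values by less than their counting intervals.

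Among the highest pairs, GAT in SSP120 (chromosome XII, 640317 to 641021) had 160 footprints on 13 occurrences, a value of 4.74 (4.04 to 5.54), and GAT in the cyclophilin CPR1 had 280 on 3, a value of 3.33 (2.95 to 3.74). RPS1A followed at 2.96, with a close paralog in RPS1B. GAC reached 5.65 (5.34 to 5.97) in RPS14A, a small subunit protein with a paralog in RPS14B, with 1271 footprints on 3 occurrences, 4.53 in RPL21B, which has a twin in RPL21A, and 4.26 (3.86 to 4.70) in PDA1, the E1 alpha subunit of pyruvate dehydrogenase, with 402 on 11. Positions within genes were not used here, so whether a high pair comes from 1 place or from all of them is not known.

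Glutamate extremes were smaller. GAA reached 3.19 in RPL35A, which has a twin, 2.74 (2.23 to 3.33) in STF2, a factor that acts with the inhibitor of the mitochondrial ATP synthase, and 2.41 (2.25 to 2.59) in the histone H2B gene HTB1, whose paralog is HTB2, with 808 footprints on 8 codons. GAG reached 2.50 (2.21 to 2.81) in RNR2, the small subunit of ribonucleotide reductase, 2.45 (1.96 to 3.03) in ARO3, an enzyme that starts aromatic amino acid synthesis, and 2.21 (1.81 to 2.67) in the 14-3-3 protein BMH2. At the low end ATP14, a subunit of the mitochondrial ATP synthase, had 0 footprints on 8 GAG codons where 33.7 were expected, which allows a value of up to 0.0889, and 1 on 9 GAA codons where 37.9 were expected. RPA14, a subunit of RNA polymerase I, had 2 footprints on 7 GAG codons (0.0620, 0.00751 to 0.224), and the mitochondrial porin POR1 had 7 on 3 (0.165, 0.0662 to 0.339).

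Without the 97 genes with a near twin, a setting added after the data were seen, the lowest pairs for the remaining codons had some footprints in most cases. For GAC they were RPL23A with 23 footprints on 3 codons (0.108), the sterol isomerase ERG2 with 6 on 7 (0.134) and the stalk protein RPP2A with 144 on 6 (0.222). For GAT they were the GTPase ARF2 with 0 on 5 (up to 0.0974), the acid phosphatase PHO3 with 1 on 23 (0.0287) and the membrane protein YOP1 with 9 on 4 (0.192), and ARF2 and PHO3 still have paralogs in ARF1 and PHO5. For GAA, after ATP14, they were RPS11A with 13 on 3 (0.0708) and YPR148C with 4 on 42 (0.112). RPL23A and RPS11A also still have paralogs, in RPL23B and RPS11B, so their reads may be shared as well. The nearest gene of RPP2A in codon make-up is RPP2B, and whether they share reads was not tested.

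A codon that occurs once in a gene shows the level of a single place. There were 124 such acidic places in genes with a mean of 10 or more footprints per codon. Their median was 0.685, from 0.324 at the 25th to 1.48 at the 75th percentile, and 23 of 124 (18.5%) were at 2 or more, against 18.0% of 2081 single places of the other sense codons. After TEF1 and TEF2 the highest was the GAG of ZEO1, a plasma membrane protein, with 501 footprints and a value of 8.39 (7.67 to 9.16). The share of strong single places on acidic codons lay close to that background.

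The 6 lists of genes with a known tie to acidic residues or to the reading of these codons were described by the value of the 4 codons together, beside a median of 0.870 over all 2854 genes with 10 or more expected acidic footprints. Lists and members were chosen with earlier results known and no list was tested. Of the 5 genes for charging tRNA-Asp and tRNA-Glu, 3 had enough footprints and all 3 lay above that median: the cytosolic aspartyl-tRNA synthetase DPS1 at 0.973 (0.871 to 1.08), the glutamyl-tRNA synthetase GUS1 at 1.07 (0.982 to 1.17) and its cofactor ARC1 at 1.28 (1.18 to 1.38). Only the interval of ARC1 lies above 1.

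The list for wobble uridine modification holds 19 names. Under those names 17 genes are in the table, and 15 of them had enough footprints. These 15 had a median of 0.751, with 4 of 15 above and 11 below the median of all genes. They ran from ELP6, an Elongator subunit, at 0.300 (0.0817 to 0.767) on 4 footprints to the sulfur transferase TUM1 at 1.35 (1.00 to 1.78) on 50. ELP3, the catalytic subunit, had 0.527 (0.301 to 0.856) on 16 footprints. The acidic footprints of ELP6, ELP3 and TUM1 are few and their intervals wide.

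Of the 14 enzymes of aspartate and glutamate metabolism listed, 12 had enough footprints. Their median was 0.986, and 7 of 12 exceeded the median of all genes. The glutamate decarboxylase GAD1 was lowest at 0.544 (0.281 to 0.951) and the mitochondrial aspartate aminotransferase AAT1 highest at 1.47 (0.960 to 2.15). The cytosolic aminotransferase AAT2 had 0.718 (0.609 to 0.840), glutamine synthetase GLN1 0.739 (0.662 to 0.823) and the glutamate dehydrogenase GDH1 1.10 (0.969 to 1.25).

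The ribosomal stalk, whose small proteins end in an acidic tail that recruits elongation factors, stood low on these codons. RPP1A had 0.614 (0.582 to 0.647), RPP1B 0.702 (0.670 to 0.734), RPP2A 0.628 (0.598 to 0.659) and RPP2B 0.599 (0.572 to 0.627), while the larger base protein RPP0 had 1.09 (1.05 to 1.12). Summed over the list, footprints over expected were 0.796 for GAC, 0.833 for GAT and 0.678 for GAA, and none of the 5 genes has a GAG codon. Only GAA was below 1 in all 4 small proteins, at 0.761 in RPP1A, 0.487 in RPP1B, 0.634 in RPP2A and 0.474 in RPP2B. In the same order GAT had 0.217, 1.29, 1.80 and 0.682, and GAC had 0.412, 0.832, 0.222 and 1.39. RPP2B held 1902 acidic footprints where 3175 were expected and RPP1A 1391 where 2266 were expected. The counting intervals of the 4 small proteins are thus narrow and lie below the median of all genes. In codon make-up the nearest gene of each of these 4 is another of them, at a distance of 0.174 to 0.206. Whether reads are shared among them was not tested, and the counting intervals do not cover it.

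For acidic histone chaperones and nucleolar proteins the median was 0.839, and 5 of the 15 with enough footprints, of 16 listed, were above that of all genes. Their extremes were ASF1 at 0.552 and the nucleolin-like NSR1 at 1.07 (0.980 to 1.16). The box C/D proteins NOP58 and NOP56 had 0.629 (0.533 to 0.737) and 0.723 (0.632 to 0.822), and NAP1 had 0.859 (0.741 to 0.991). Hsp90 and its co-chaperones had a median of 0.915 with 5 of 8 above. HSC82, the constitutive Hsp90 with a charged linker rich in glutamate, had 0.928 (0.884 to 0.975), its near twin HSP82 1.10 (0.985 to 1.23), with reads that may be shared between them, and the adaptor STI1 0.774 (0.697 to 0.858).

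**Figure D5:**
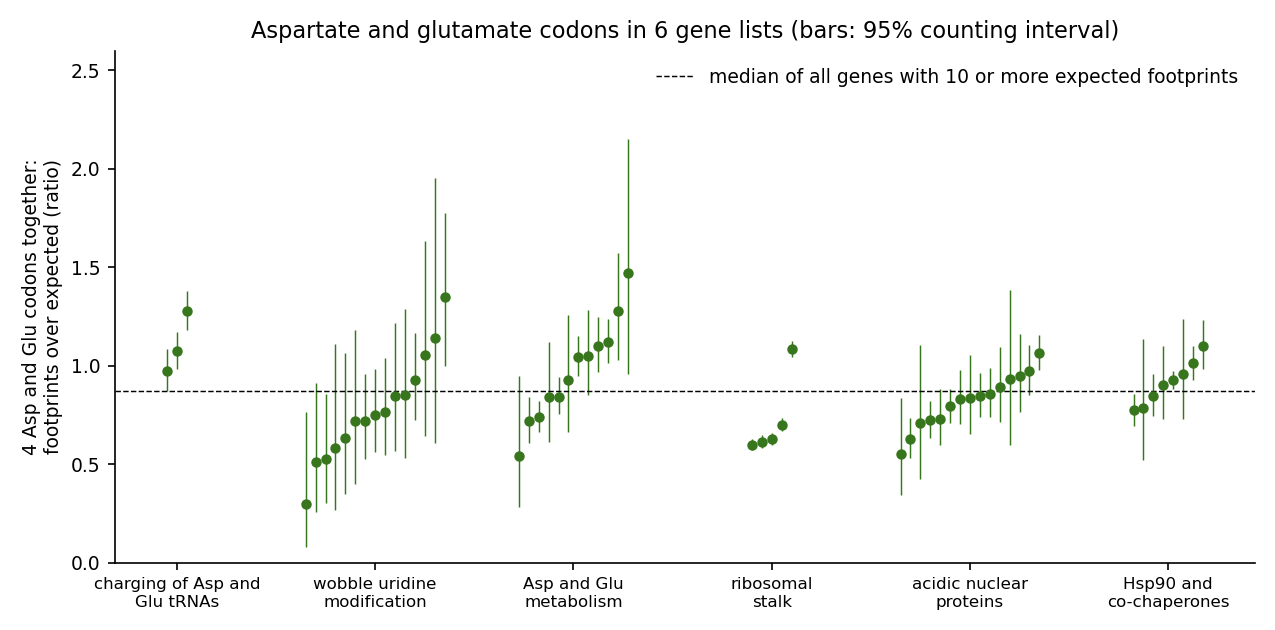
Value of the 4 acidic codons together (footprints over those expected from the gene mean, ratio, y axis) for each gene of the 6 lists (x axis), sorted within a list. Bars are 95% counting intervals and the dashed line is the median of 0.870 over 2854 genes. The 4 small stalk proteins sit at 0.599 to 0.702, below the line, with RPP0 above it at 1.09.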

How the data were processed

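Per the submitters' processing notes, cutadapt, Bowtie2, HISAT2, HTSeq and the sacCer3 build were used. Their order, versions and settings were not given in the sources used here, and neither was the ribosomal site assigned to a codon. The deposited footprint columns are raw counts per gene and codon, per the file headers. The authors' other columns of whole numbers are codon occurrences: 4575 genes have 1 stop codon and no pair has footprints without an occurrence. The deposited FPKM column behaves as CPM, since all values are whole multiples of 0.0459 within 0.001 reads; its library is not named. RNA counts per codon and codon positions were not used here, so the planned position and sequence features were not described.

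Gene symbols and coordinates came from RefSeq R64 (4578 of 4579 genes matched). Counting intervals are gamma intervals for weighted counts (codons) or exact Poisson intervals (genes) at 95%, and a count of 0 was given a limit of 3 counts. SEs over genes are linearised. Scripts used Python 3.11.15, numpy 2.4.6, pandas 2.3.3, scipy 1.17.1 and matplotlib 3.10.9, and were tested on simulated data. The simulated counts varied around set levels by counting error only, so the intervals were not checked under the spread between genes seen here. Named pairs were the 3 highest and 3 lowest per codon, the 8 genes with most footprints and the extremes of each list; other genes were chosen after their values were seen. Members and lists were chosen with earlier results of these data known. Alternatives changed the footprint minimum, the gene mean, the weighting, a cap on high counts and the gene set.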

Additional observations from a re-analysis of the deposited data

How the results depend on the processing

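No paired analysis was possible because each kind of library has 1 sample, and leaving out a replicate was impossible for the same reason. Leaving stop codons and ATG out of the gene mean, leaving out the 8 genes with most footprints or those with a near twin, or keeping genes with both codons of a pair left every codon value and ratio they were run on within its counting interval. With at least 1000 footprints a gene, GAC had 1.07 and so changed side, GAT 0.930, GAG 1.13 and GAA 0.865. The log2 ratios were then 0.20 for GAC over GAT, 0.39 for GAG over GAA, 0.043 for the abundance classes and -0.11 for the acidic classes. With at least 30, GAC had 0.945, and the log2 ratios were 0.079 for GAC over GAT, 0.075 for abundance and -0.073 for acidic share. Wherever a setting changed the set of genes, the abundance and acidic classes were redrawn within it. GAC also lay above 1 in the capped, summed and pooled settings. With high counts capped, GAC had 1.03, GAT 0.970, GAG 1.04 and GAA 0.869, GAC over GAT was 0.080, GAG over GAA 0.25 and abundance 0.036 (log2). As ratios of sums, GAC had 1.04, GAT 0.905, GAG 1.06 and GAA 0.853, and the log2 ratios were 0.20 for GAC over GAT, 0.078 for length, 0.16 for abundance and -0.10 for acidic share. As medians over pairs, GAC had 0.924, GAT 0.845 and GAG 0.897, and the log2 ratios were 0.19 for GAG over GAA, 0.12 for length, 0.32 for abundance and, reversed, 0.023 for acidic share.

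With footprints pooled and no gene mean, GAC had 1.29, GAT 0.577, GAG 0.438 and GAA 0.961, GAC over GAT was 1.16 and GAG over GAA reversed to -1.13, and the log2 ratios were 0.38 for length, -0.021 for abundance and 0.16 for acidic share, both of the last reversed. The cause of these reversals was not tested. A gene mean without the 4 codons, added after the data were seen, put the acidic share ratio at -0.19. The abundance ratio was 0.20 for the top over the bottom 10% of genes, and 0.26, 0.16 and 0.20 within the 3 shortest length classes. The length ratio was -0.041, -0.068 and -0.071 within abundance classes 2 to 4. The share of pairs at 2 or more was 5.24% with 5 or more expected footprints, and that at 0.5 or less was 24.8% with 5 or more and 13.1% with 30 or more, over sets of pairs that also differ.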
